A study of Mus musculus with 6 samples.

Results

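The cytosolic ribosomal protein genes were examined in RNA-Seq counts from mouse Naive, Th17 and Th1 CD4+ T cells. They were chosen by symbol as the rows named Rpl or Rps followed by a digit, plus *Rpsa*, *Rplp0*, *Rplp1* and *Rplp2*, without the Rps6k kinases and without symbols that contain -ps. The rule found 88 of 24223 genes. Of these, 77 are the core proteins of the cytosolic ribosome, 31 of the small and 46 of the large subunit, 9 are paralogues of a core gene, 1 (*Rps19bp1*) encodes another protein whose symbol matched, and 1 (*Rpl37rt*) was in neither list. The rule used names and no measured value. It left out 7 -ps symbols and 10 Rps6k symbols, and it did not reach such genes as *Fau* and *Gnb2l1* (now *Rack1*), which also encode ribosomal proteins.

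The study compared gene expression and chromatin structure before and after T cell differentiation, and its RNA-Seq part holds 2 libraries for each of the 3 cell types. Naive were CD4+CD44- T cells isolated with a magnetic kit from C57BL/6 mice aged 1 to 2 months, with spleens and lymph nodes pooled. Th1 and Th17 were grown from such cells for 5 days on anti-CD3 and anti-CD28 antibodies. Th1 cultures received anti-IL-4 antibody, IL-12 and IL-2, and Th17 cultures received antibodies to IL-4 and IFN-γ together with TGF-β, IL-6, IL-1β and IL-23. No genetic change was stated for any group. No stimulation or culture of the Naive cells was described, so that polarization, stimulation and time in culture cannot be told apart in a comparison with Naive.

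Each ribosome is built from rRNA and a single copy of most of these proteins, with the small subunit reading the mRNA and the large subunit joining amino acids. The mRNAs of the ribosomal proteins are among the most abundant of a cell, and most begin with a run of pyrimidines, the TOP motif, through which mTORC1 and Larp1 control how actively they are translated. T cells that leave rest enlarge and build ribosomes before they divide, which makes the family a common measure of growth, although an mRNA level does not give the amount of protein or of ribosomes.

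The start sites are shown because the TOP motif is the sequence by which these mRNAs are known. RefSeq promoters on GRCm38.p6 were matched by symbol for 67 members, 57 of them core. In the following windows of 30 bases, 20 lie before and 10 from the annotated start, and capitals mark a pyrimidine run that begins at the start itself.
*Rps6* (chr4:86857358-86857387, minus strand): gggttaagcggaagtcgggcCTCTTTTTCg
*Rpl35* (chr2:39005122-39005151, minus strand): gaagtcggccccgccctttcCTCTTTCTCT
*Rps15a* (chr7:118116138-118116167, minus strand): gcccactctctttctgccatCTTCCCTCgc
*Rpl28* (chr7:4792945-4792974, plus strand): tcgtcccgcctctcgtgtctCTCTTTCCgt
*Rpl38* (chr11:114668560-114668589, plus strand): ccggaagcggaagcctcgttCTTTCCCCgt
*Rpl24* (chr16:55966255-55966284, plus strand): taggaagaaagctgttgctaggaaacagac
*Rpl12* (chr2:32961692-32961721, plus strand): gcgtgggcggagcaggatccgtcttttcgg
*Rpl13a* (chr7:45128736-45128765, minus strand): gataagaaaccctgcgacaagacctcctcc
The first 5 start with C and at least 4 more pyrimidines, and the last 3 do not. The 57 core genes had 67 promoters, since some have several. Such a start was found in 13 of these 67 (19.4%) and in 823 of all 32851 promoters (2.5%). An annotated start can lie a few bases from the one in use, and when the run was allowed to begin within a few bases of it the shares were 43.3% and 18.3%. By this wider rule *Rpl12* and *Rpl13a* had a run and *Rpl24* did not. Within the promoter of 300 bases, on both strands, CCGGAAG, a letter string of Ets family sites, was present in 37.3% of core promoters against 8.9% of all, and AAGATGG, a string of YY1 sites, in 16.4% against 6.3%. TATAAA, searched on the given strand 40 to 20 bases before the start, was in 0 of 67 against 1.9% of all. The motifs were searched separately, and a match describes these letters and no binding.

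The coding starts of *Rps27* and its relatives are shown because these genes could be told apart by reads to very different degrees. The first 60 coding bases were taken from GENCODE vM21 transcripts on GRCm38, and capitals mark the differences from *Rps27*.
*Rps27*: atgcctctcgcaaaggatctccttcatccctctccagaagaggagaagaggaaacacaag
*Rps27rt*: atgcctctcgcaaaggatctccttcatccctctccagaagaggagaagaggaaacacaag
*Rps27l*: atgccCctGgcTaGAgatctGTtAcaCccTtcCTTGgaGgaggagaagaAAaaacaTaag
*Rps27* (chr3:90212522-90213651, minus strand, 3 exon blocks) and *Rps27rt* (chr9:114982366-114982739, minus strand, 1 exon block) had the same 252 coding bases. *Rps27l* (chr9:66946086-66949516, plus strand) differed from *Rps27* at 18 of the 60 bases shown and matched it at 192 of 252 bases overall. Among the other pairs, *Rpl37rt* matched 290 of the 291 coding bases of *Rpl37*, whereas *Rpl7l1* matched 456 of the 810 of *Rpl7*.

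The 6 libraries held between 17742158 and 69080017 counts. Depth went with the replicate number, from 59973041 to 69080017 counts in replicate 1 and from 17742158 to 18608805 in replicate 2 of the 3 cell types. The labelled cell types were checked by their markers. *Il17a* was at 573 and 688 CPM (counts in each 1000000 counts of the library) in Th17 and below 1 in the other 4 libraries, *Tbx21* was at 129 and 137 CPM in Th1 and at most 24.5 elsewhere, and *Cd4* lay between 395 and 803 in all. Markers of other cells were also present. All 8 neutrophil markers in the table exceeded 10 CPM in both Th17 libraries, where they summed to 3204 and 2824 CPM, against 390 and 238 in Naive and 28.6 and 36.1 in Th1. *Mpo* was lower in Th17 (74.23 and 58.45 CPM) than in Naive (263.5 and 172.8), and *Elane* and *Prtn3* overlapped between these groups. *S100a8*, *S100a9*, *Ltf*, *Ngp* and *Camp* were higher in Th17. Macrophage and dendritic cell markers summed to 265 and 829 CPM in Th17 and to between 10.9 and 47.8 elsewhere. Most of the Th17 sum was *Lyz2*, at 242.5 and 759.4 CPM. Of these 8 markers, 1 exceeded 10 CPM in Th17 replicate 1 and 4 in replicate 2. *Flt3* was lower in Th17 (1.35 and 1.47 CPM) than in Naive (6.99 and 2.69), and *Csf1r* and *Itgax* overlapped between the 2 groups. Erythroid markers summed to 905 and 154 CPM in the Naive libraries and to at most 2.43 in the others, with the 4 globin genes at 0 counts in every library. Mast cell and basophil markers summed to 179 and 56.4 CPM in Naive, 246 and 440 in Th17, with 73.8 and 56.6 in Th1. Like the core genes they were highest in Th17 replicate 2 and higher in replicate 1 than in replicate 2 of Naive. In Th1 they were lower in replicate 2, whereas the core genes together were higher there. *Kit* was lower in Th17 (13.96 and 11.39 CPM) than in Naive (104.9 and 32.14), and *Gata2* overlapped. *Cpa3*, *Mcpt8*, *Fcer1a*, *Prss34* and *Ms4a2* were higher in Th17. B cell markers summed to at most 20.8 CPM. The part of these cells in the results on ribosomal proteins was not tested.

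The 77 core genes took up 15.4% and 11.1% of all counts in the Naive libraries, 15.4% and 19.99% in Th17, and 10.6% and 12.9% in Th1, in the order of the replicates. The means were 13.2% ± 3.07, 17.7% ± 3.22 and 11.7% ± 1.64 (SD, n = 2 each). The lower Th17 library barely exceeded the higher Naive library, the Th1 libraries lay on both sides of the lower Naive library, and both Th17 libraries lay above both Th1 libraries. With 2 libraries against 2, the smallest two-sided p that an exact permutation test can give is 0.33, and this was its value for Th17 against Naive and for Th1 against Th17, with 0.667 for Th1 against Naive. With totals scaled by TMM the shares were 14.65% and 10.19% in Naive, 14.15% and 20.05% in Th17, with 11.29% and 14.94% in Th1. The Th1 mean was then 13.1%, above the 12.4% of Naive, and Th1 replicate 2 lay above Th17 replicate 1, so that the order of Th1 and Naive turned and Th17 and Th1 overlapped. Of the 20 genes with the most counts, 13 and 11 were core genes in Naive, 15 and 16 in Th17, with 6 and 10 in Th1. In these bulk samples, fewer cells of a type and less RNA per cell cannot be told apart.

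**Figure D1:**
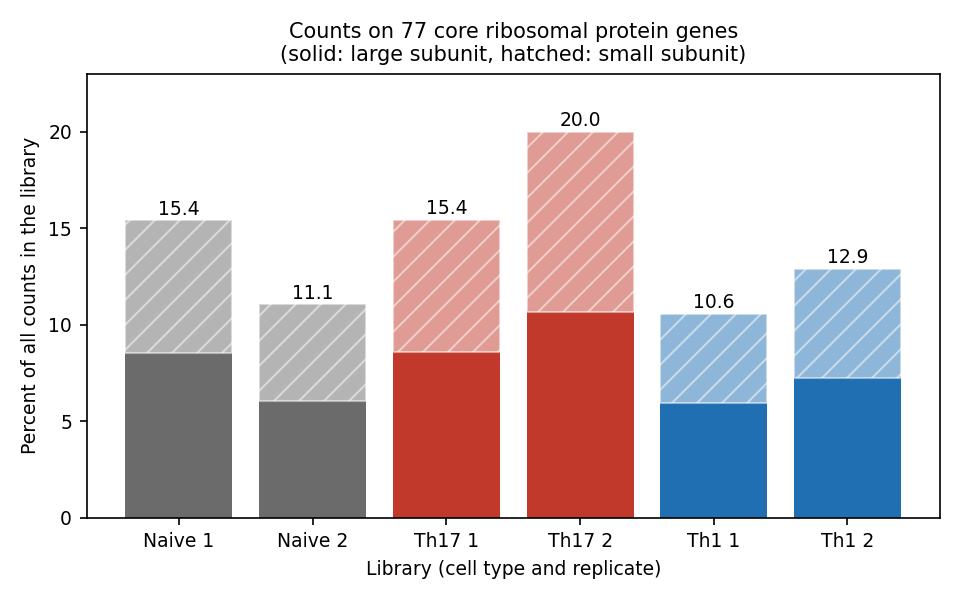
Percent of all counts on the 77 core ribosomal protein genes in each of the 6 libraries, with large subunit genes solid and small subunit genes hatched. The bars reach 15.4 and 11.1 in Naive, 15.4 and 19.99 in Th17, with 10.6 and 12.9 in Th1, so that replicates of one cell type differ about as much as cell types do.

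The 2 subunits kept a similar proportion, with both Th1 libraries below all those of Naive and Th17. This difference was not tested. Small subunit genes had 0.804 and 0.835 counts for each large subunit count in Naive, 0.802 and 0.872 in Th17, with 0.780 and 0.777 in Th1. Across the core genes that had over 1000 counts in each library, 73 of 77, the level per length ranged 16.9-fold, from 334 to 5629 CPM per kilobase of transcript with a median of 2448. The highest were *Rplp1*, which encodes an acidic protein of the stalk that recruits elongation factors, at 5629, *Rps14*, a protein of the platform of the small subunit, at 5576, *Rpl41*, the smallest ribosomal protein, at 5245, and *Rps9*, which helps to keep decoding accurate, at 4852 CPM per kilobase. *Rpl21* was the lowest of the 73 at 334, followed by *Rps20* at 419, whose length was that of a transcript of 3706 bases. The profile over the 73 genes was much alike in all libraries, with Pearson's r of log2 CPM of 0.959 between the Naive, 0.946 between the Th17 and 0.960 between the Th1 replicates, and between 0.840 and 0.957 for libraries of different cell types. These are correlations across genes, which are not independent replicates.

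The other 4 core genes had almost no counts in any library, although their proteins belong to every ribosome. *Rpl26*, a protein at the tunnel exit, had 0 counts in all 6 libraries, where a count of 0 allows up to 0.0434 CPM in the deepest and up to 0.169 CPM in the shallowest library. *Rpl30* had 20 and 1 counts in Naive, 15 and 8 in Th17, with 8 and 8 in Th1. *Rps27* had 88 and 28, 87 and 31, and 86 and 8 counts, and *Rpl34* had 169 and 60, 215 and 89, and 153 and 15 counts, in the same order of libraries. All other core genes had more than 1000 counts in every library. The low counts were shared by the 3 cell types. Of all stretches of 100 bases in the annotated transcript, 36.9% of *Rpl26*, 53.5% of *Rpl30*, 31.0% of *Rpl34* and 98.4% of *Rps27* occurred also in another annotated gene. Over the 73 well-counted genes the median of this share was 45.3%, with 33 genes above 50%, and its correlation with the log2 level per kilobase was -0.07. *Rpl10*, at 91.6%, still had between 1135 and 2375 CPM. The cause of the low counts was not tested, and copies outside annotated genes were not searched.

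Each pair of cell types was then compared gene by gene with edgeR's quasi-likelihood test across 13607 genes, of which 84 were members and 76 core genes. *Rpl10l*, *Rpl26*, *Rpl3l* and *Rps27rt* had too few counts. The threshold for a call was an adjusted p (Benjamini-Hochberg) under 0.05. Fold changes are differences on the log2 scale between cell types after TMM scaling, whereas the CPM values are relative to the total counts alone. The 3 comparisons share libraries and are not independent of each other. No member was called by edgeR in any comparison in either direction, while 9.37% of all tested genes were called higher and 6.51% lower in Th17 than in Naive, 9.10% higher and 7.33% lower in Th1 than in Naive, and 8.25% higher and 8.14% lower in Th1 than in Th17. At the stricter thresholds of the study, an adjusted p under 0.01 together with a log2 value beyond 1 in either direction, the members called were again 0, against 5.43%, 7.45% and 5.53% of all genes in the 3 comparisons in the same order. At an unadjusted p under 0.05, edgeR gave 4, 2 and 11 of the 84 members, against 33.3%, 29.9% and 33.8% of all genes. DESeq2 called 2 members higher in Th17 than in Naive, against 11.1% of the genes it tested, and 3 lower in Th1 than in Th17, against 10.2%. It called 0 members in the other directions, where it called 8.98% of genes lower in Th17 than in Naive, 10.6% higher and 8.48% lower in Th1 than in Naive, and 11.1% higher in Th1 than in Th17.

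No core gene passed the test, and the fold changes are described here by their median and sign. For Th17 against Naive, the median over the 76 core genes was 0.47 on the log2 scale, with 73 above 0, where the median over all genes was -0.02. Th1 against Naive had a median of 0.07, with 43 above 0, and Th1 against Th17 had -0.43, with 9 above 0. The corresponding medians over all genes were -0.02 and -0.03. Scaling by library size alone moved the median of all genes to -0.26 in Th1 against Naive and to -0.24 in Th1 against Th17. With that scaling the median of the core genes was -0.18 in Th1 against Naive, so that its direction turned, and -0.65 in Th1 against Th17.

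By CPM, both Th17 libraries exceeded both Naive libraries for 39 of 76 core genes, against 32.1% of all genes tested, and lay below both for 0, against 33.1%. Both Th1 libraries exceeded both Naive libraries for 2 core genes, *Rpl24* and *Rpl29*, against 18.7% of all genes, and lay below both for 18, against 40.8%. They exceeded both Th17 libraries for 2, *Rpl29* and *Rps2*, against 20.9%, and lay below both for 60, against 44.6%.

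The 2 replicate numbers gave different pictures of the comparisons with Naive. Within replicate 1, the core genes differed between Th17 and Naive by a median of -0.03 on the log2 scale, with 30 of 76 above 0, and within replicate 2 by 0.96, with 76 of 76 above 0. Th1 was lower than Naive within replicate 1, by a median of -0.36 with 4 of 76 above 0, and higher within replicate 2, by 0.57 with 71 of 76 above 0. Th1 was lower than Th17 within both, by -0.36 with 9 above 0 and by -0.54 with 10 above 0. Here 65 of the 76 genes were lower and 8 higher both times. The same counts were 0 lower and 30 higher in Th17 against Naive, and 4 lower and 3 higher in Th1 against Naive. Such counts were not made over all genes. The median over all genes lay between -0.06 and 0.03 in these 6 pairs of libraries. The labels do not say that a replicate number marks a shared preparation, and depth differed between the numbers. After thinning every library to the smallest total, the medians over the whole groups were 0.49, 0.05 and -0.47.

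**Figure D2:**
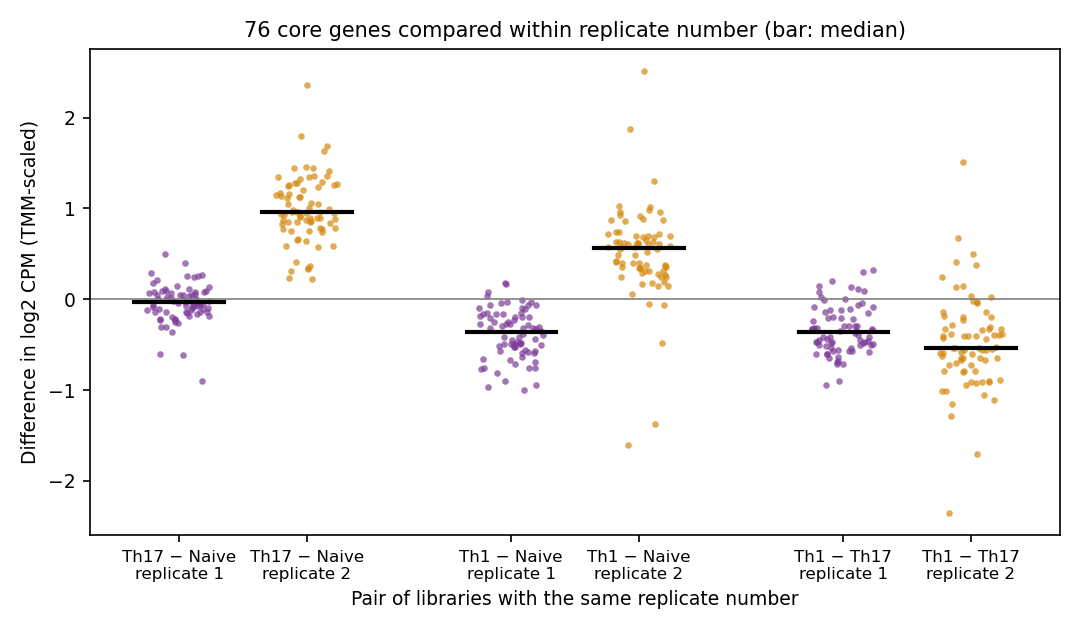
Difference in log2 CPM (TMM-scaled) between the libraries of 2 cell types with the same replicate number, 1 point for each of 76 core genes, with a bar at the median. Th17 minus Naive is centred near 0 in replicate 1 and near 0.96 in replicate 2, Th1 minus Naive lies below 0 in replicate 1 and above 0 in replicate 2, and Th1 minus Th17 lies mostly below 0 in both.

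**Figure D3:**
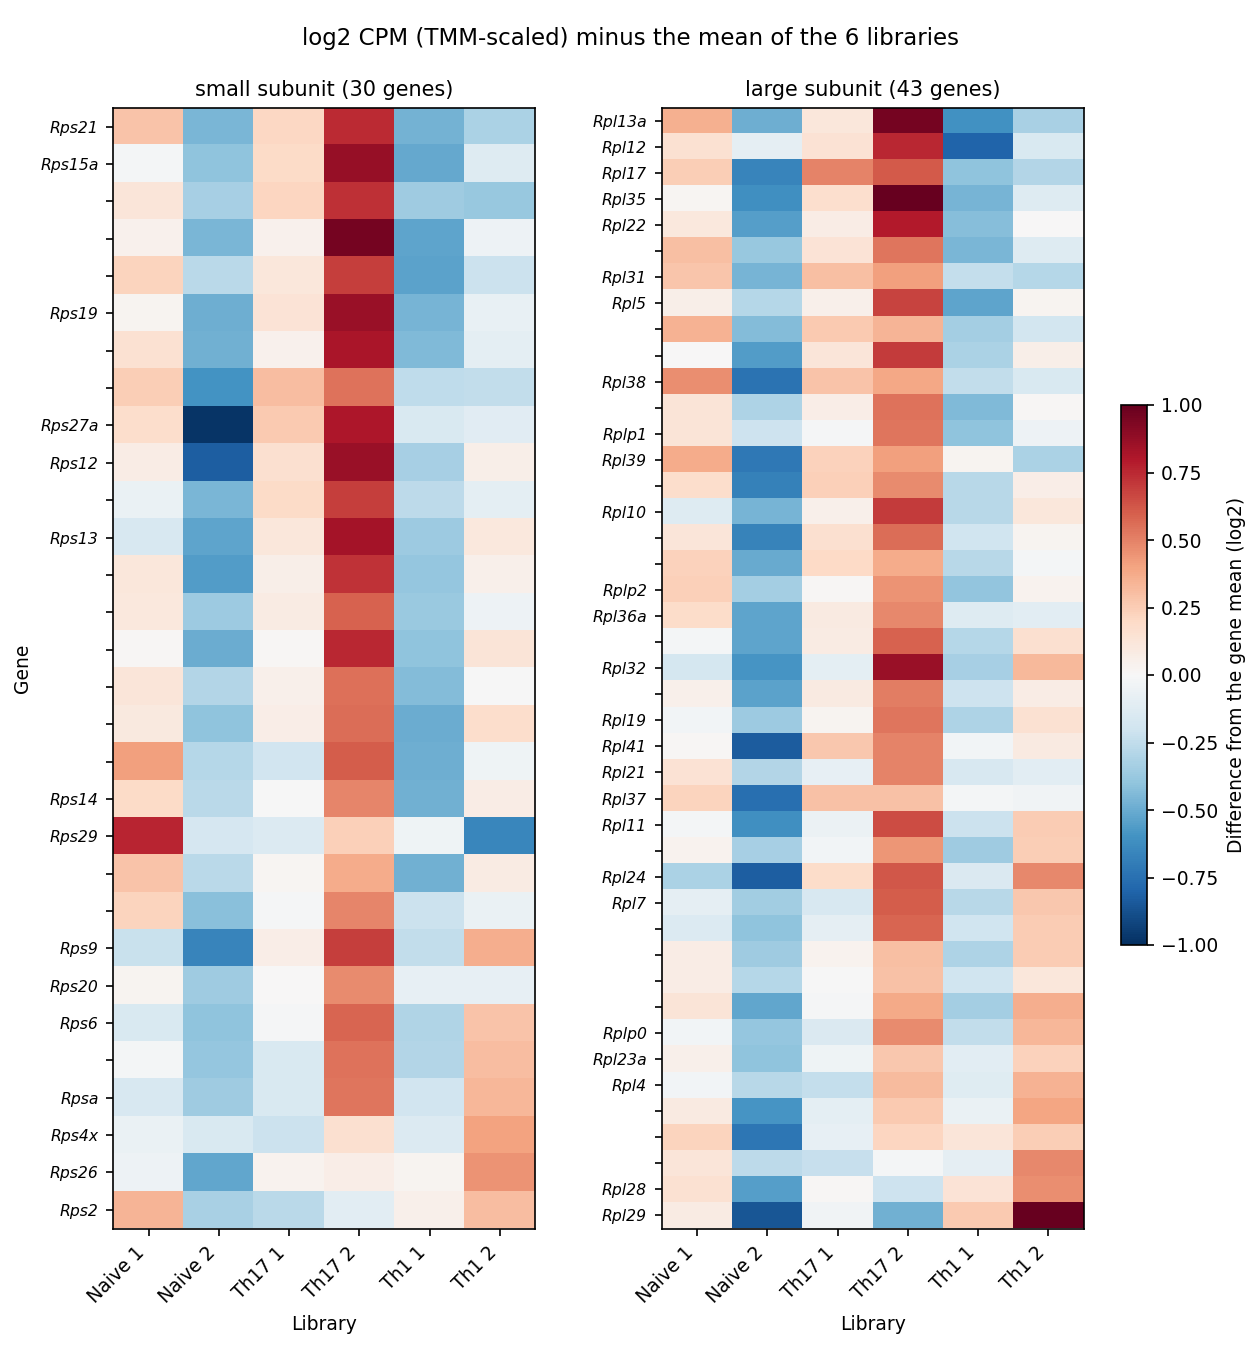
log2 CPM (TMM-scaled) of the 73 core genes that had over 1000 counts in each library, minus the mean of the gene over the 6 libraries, sorted within each subunit by the Th17 minus Th1 difference. Most genes are highest in Th17 replicate 2 and low in Naive replicate 2 and Th1 replicate 1, with *Rpl29*, *Rps2* and *Rpl28* at the other end of the order. Rows are labelled for genes described in the text.

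Among proteins of the small subunit, none of 31 was called in any comparison, and the median log2 fold changes were 0.48 in Th17 against Naive, -0.05 in Th1 against Naive and -0.54 in Th1 against Th17. *Rps6*, the protein that S6 kinases phosphorylate when growth is stimulated, was at 2526 and 2198 CPM in Naive, 2884 and 3991 in Th17 as well as 2026 and 2804 in Th1. Both Th17 libraries lay above the others, and the log2 fold change from Naive was 0.59 ± 0.37 (SE; edgeR adjusted p = 0.287). *Rps19*, which is needed to mature the small subunit and is mutated in Diamond-Blackfan anaemia, was at 2329 and 1684 CPM in Naive, 2615 and 3951 in Th17, with 1478 and 1785 in Th1, and Th1 and Th17 did not overlap (log2 fold change -0.80 ± 0.38 SE, edgeR adjusted p = 0.164). *Rps27a*, made as a fusion of the ribosomal protein with ubiquitin, was at 1111 and 514 CPM in Naive, 1227 and 1639 in Th17, with 788 and 749 in Th1. Its 2 Naive libraries differed more than 2-fold, and both Th1 libraries lay between them. The log2 fold change of Th17 against Naive was 0.86 ± 0.40 (SE; edgeR adjusted p = 0.168), and without Naive replicate 1 it was 1.55 and was called.

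At the mRNA exit and platform, 5 genes were tested and 0 called. *Rpsa*, which also serves as a laminin receptor, was at 4002 and 3611 CPM in Naive, 4175 and 6136 in Th17 as well as 3486 and 4638 in Th1. *Rps26* had a positive value below only those of *Rpl29* and *Rpl24* in Th1 against Naive (log2 fold change 0.52 ± 0.32 SE, edgeR adjusted p = 0.323), with 1277 and 955 CPM in Naive, 1405 and 1314 in Th17, with 1204 and 1482 in Th1, and these groups overlapped. *Rps14* was at 3893 and 2919 CPM in Naive, 3514 and 4524 in Th17, with 2174 and 2949 in Th1, also with overlap between Naive and Th1.

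At the mRNA entry and decoding sites, 4 genes were tested and 0 called. *Rps2*, at the mRNA entry, stood apart from most of the family, at 3449 and 2241 CPM in Naive, 2336 and 2402 in Th17 as well as 2507 and 2764 in Th1. Its log2 fold change was -0.23 ± 0.35 (SE; edgeR adjusted p = 0.671) in Th17 against Naive and 0.37 ± 0.35 (adjusted p = 0.479) in Th1 against Th17. *Rps29*, a small zinc-binding protein of the head of the subunit, had the lowest core value in both comparisons with Naive. It was at 1892 and 1025 CPM in Naive, 1049 and 1246 in Th17, with 963 and 582 in Th1, where both Th1 libraries lay below the other 4. The log2 fold change of Th1 against Naive was -0.69 ± 0.39 (SE; edgeR adjusted p = 0.278).

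Some small subunit genes had an unadjusted p under 0.05 in Th1 against Th17. *Rps15a* and *Rps21*, both with a pyrimidine start, had values of -0.88 and -0.89. In Th17 against Naive, *Rps12* and *Rps13* were, with *Rps27a*, the 3 genes of the subunit with the largest values, at 0.86 ± 0.39 and 0.85 ± 0.36 (SE; edgeR adjusted p = 0.155 and 0.128). *Rps12* was at 973 and 539 CPM in Naive, 1071 and 1591 in Th17 as well as 652 and 790 in Th1, so that Naive spanned both Th1 libraries.

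Among proteins of the large subunit, 45 of 46 were tested and 0 called, and the median log2 fold changes were 0.43 in Th17 against Naive, 0.13 in Th1 against Naive and -0.40 in Th1 against Th17. The stalk that brings elongation factors to the ribosome was examined through *Rplp0*, its scaffold, *Rplp1* and *Rplp2*, the flexible proteins on it, and *Rpl12* at its base. *Rplp0* was at 5644 and 4523 CPM in Naive, 5397 and 7535 in Th17, with 4305 and 5933 in Th1, and the 3 groups overlapped. *Rplp1* was at 3145 and 2578, 2962 and 3957, and 1938 and 2275 CPM in the same order, and *Rplp2* at 1818 and 1258, 1614 and 1992, and 1044 and 1298 CPM. *Rpl12* was at 2725 and 2382, 2809 and 3913, and 1257 and 1811 CPM, and the Th1 libraries lay below all others (log2 fold change -0.92 ± 0.37 SE against Th17, edgeR adjusted p = 0.116, and -0.48 ± 0.37 against Naive, adjusted p = 0.442). From the highest to the lowest of the 4 in Th1 against Th17, the values were -0.12 for *Rplp0*, -0.41 for *Rplp2*, -0.51 for *Rplp1* and -0.92 for *Rpl12*. Differences between these values were not tested.

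*Rpl5* and *Rpl11* bind 5S rRNA, and outside the ribosome the same particle binds Mdm2 and so links ribosome assembly to p53. *Rpl5* was at 2482 and 2021 CPM in Naive, 2563 and 3612 in Th17, with 1472 and 1990 in Th1. *Rpl11* was at 1783 and 1225, 1797 and 2697, and 1386 and 1775 CPM. Both were highest in Th17, and in Th1 against Naive *Rpl5* had a log2 fold change of -0.12 and *Rpl11* one of 0.33, neither of them called. *Rpl10*, which is added late in assembly and is needed for the subunits to join, was at 1414 and 1152 CPM in Naive, 1658 and 2375 in Th17 as well as 1135 and 1369 in Th1 (log2 fold change 0.70 ± 0.35 SE in Th17 against Naive, edgeR adjusted p = 0.190).

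Along the tunnel through which the new protein leaves, *Rpl4*, *Rpl17* and *Rpl39* line the inside, and *Rpl19*, *Rpl23a*, *Rpl31* and *Rpl35* lie around the exit. None of these 7 was called. *Rpl17* was at 2003 and 1105 CPM in Naive, 2471 and 2446 in Th17, with 1134 and 1128 in Th1. Its Th17 and Th1 replicates were close to each other and far apart between the groups, and the log2 fold change of Th1 against Th17 was -0.91 ± 0.36 (SE; edgeR adjusted p = 0.112), which DESeq2 called. *Rpl35* was at 1306 and 870 CPM in Naive, 1501 and 2475 in Th17, with 829 and 967 in Th1. It had values of 0.92 ± 0.38 (SE; edgeR adjusted p = 0.127) in Th17 against Naive and -0.94 ± 0.38 (adjusted p = 0.117) in Th1 against Th17. *Rpl4* was nearly level, at 2647 and 2294, 2369 and 3170, and 2205 and 2808 CPM, with log2 fold changes between 0.07 and 0.28.

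Large values were also found for 3 further genes of the large subunit. *Rpl24* (chr16:55966275-55971435), whose protein forms a bridge to the small subunit, was at 1015 and 735 CPM in Naive, 1488 and 1845 in Th17 as well as 1016 and 1444 in Th1. It had the highest core value in Th17 against Naive, 0.97 ± 0.36 (SE; edgeR adjusted p = 0.0898), and 0.75 ± 0.36 (adjusted p = 0.191) in Th1 against Naive. DESeq2 called it in Th17 against Naive. Another annotated gene on the same strand, Gm28037, shares 47.0% of its exon bases, so that reads there could be assigned to either. *Rpl13a* (chr7:45125558-45128761), which in myeloid cells treated with interferon-γ leaves the ribosome to silence mRNAs, was at 3472 and 1991 CPM in Naive, 3033 and 4979 in Th17, with 1587 and 1772 in Th1. Th1 lay below all other libraries (log2 fold change -1.05 ± 0.42 SE against Th17, edgeR adjusted p = 0.110), DESeq2 called it, and 35.4% of its exon bases are shared with Gm45713 and small RNA genes. *Rpl29* (chr9:106429454-106431568), without which mice are viable but small, was at 799 and 433 CPM in Naive, 764 and 514 in Th17, with 808 and 1263 in Th1.

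In Th1 against Th17 *Rpl29* had a value opposite in sign to most of the family. Both Th1 libraries were above the other 4, Th1 replicate 1 by little over Naive replicate 1, and the log2 fold changes were 1.01 ± 0.40 (SE; edgeR adjusted p = 0.122) against Naive and 0.94 ± 0.40 (adjusted p = 0.133) against Th17. Without a filter on low counts, edgeR called it in both. *Rpl28* (0.47 and 0.41) also had positive values in both comparisons of Th1, and was not called. *Rpl34*, the lowest value in Th1 against Th17 at -1.27 ± 0.55 (SE; edgeR adjusted p = 0.135), rested on the few counts given above. For the core genes with a RefSeq promoter, the median log2 fold changes of the 13 with a pyrimidine start were 0.54, -0.09 and -0.58 in Th17 against Naive, Th1 against Naive and Th1 against Th17, and those of the 43 others tested were 0.47, 0.13 and -0.41. This difference was not tested.

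The composition within the family was read by dividing each gene's counts by those of all core genes of the library, which sets aside a difference common to all of them. On this scale, with edgeR fitted to all genes after scaling to the core sum, 0 members were called in any comparison. *Rpl24* held 0.659% and 0.665% of core counts in Naive, 0.965% and 0.923% in Th17, with 0.962% and 1.12% in Th1, so that Naive lay below the other 4 libraries with little spread. *Rps9* held 2.05% and 2.18%, 2.59% and 2.83%, and 2.62% and 3.02%, again lowest in Naive. *Rpl29* held 0.519% and 0.391%, 0.496% and 0.257%, and 0.765% and 0.980%, highest in Th1 (log2 fold change 1.21 ± 0.40 SE against Th17 on this scale, edgeR adjusted p = 0.0569). *Rpl12* held 1.77% and 2.16%, 1.82% and 1.96%, and 1.19% and 1.41%, and *Rpl13a* 2.25% and 1.80%, 1.97% and 2.49%, and 1.502% and 1.38%, both lowest in Th1. *Rps29* held 1.23% and 0.927% in Naive, and between 0.452% and 0.911% in the others. Over the 73 well-counted genes, both Th17 shares exceeded both Naive shares for 21 genes and lay below them for 17. Th1 shares exceeded those of Naive for 18 and lay below for 22, and exceeded those of Th17 for 15 and lay below for 25. No matching share over all genes was computed on this scale. These counts describe the 73 genes and do not show that composition changed with cell type.

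**Figure D4:**
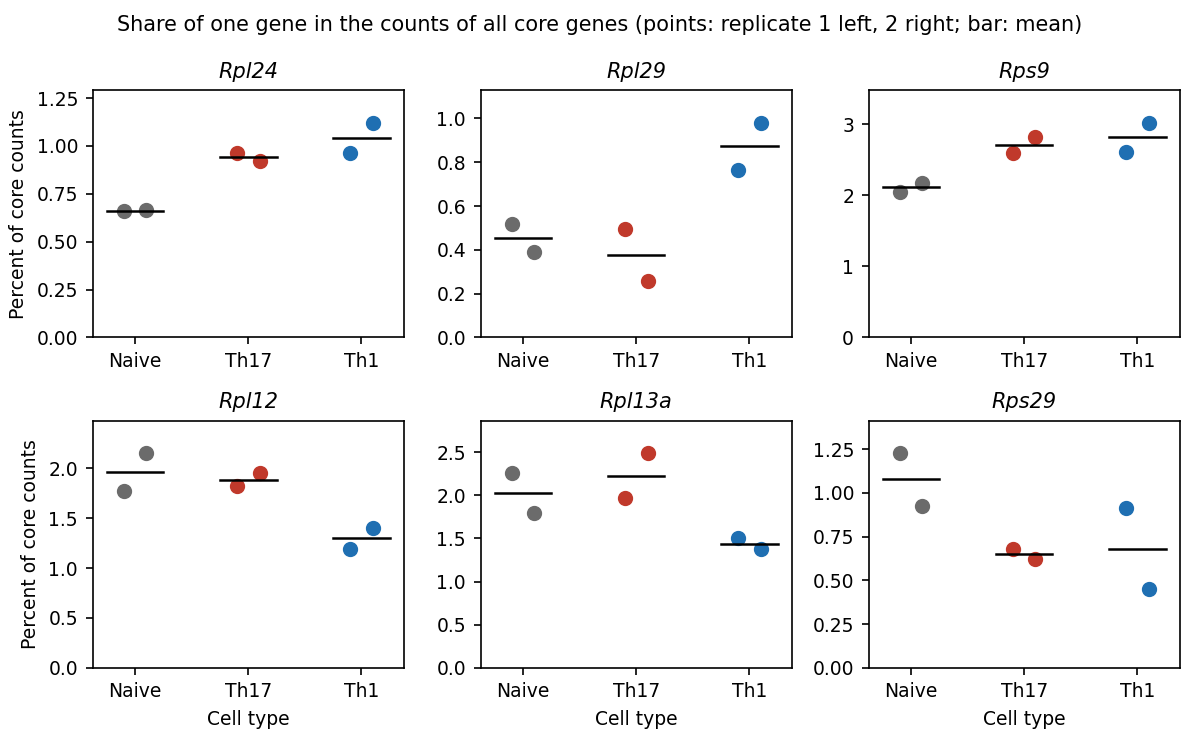
Percent of the counts of all 77 core genes that fell on each of 6 genes, with replicate 1 left and replicate 2 right of each position and a bar at the mean of the 2. *Rpl24* and *Rps9* are lowest in both Naive libraries, *Rpl29* is highest and *Rpl12* and *Rpl13a* are lowest in both Th1 libraries, and *Rps29* is highest in both Naive libraries.

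By mean CPM per kilobase of transcript, the paralogues were below the genes they resemble, except for *Rps27l*, at 222 against 3.74 for *Rps27*, which had few counts. *Rpl36al* (884 against 1533) and *Rpl22l1* (373 against 1381) were the nearest to their partners. *Rpl36al* was at 583 and 358 CPM in Naive, 512 and 474 in Th17 as well as 400 and 463 in Th1, against 863 and 543, 838 and 1002, and 618 and 579 CPM of *Rpl36a*. *Rpl22l1* was at 225 and 163, 224 and 338, and 165 and 120 CPM, against 704 and 461, 713 and 1077, and 434 and 539 CPM of *Rpl22*, an RNA-binding protein needed for development of αβ T cells. *Rpl7l1* was at 153 and 90.2, 158 and 175, and 92.0 and 70.9 CPM. *Rpl37rt* was at between 59.4 and 121 CPM, and reads of *Rpl37* could be assigned to it because of their shared sequence. *Rps4l* had at most 5.58 and *Rpl39l* at most 1.92 CPM. GENCODE vM21 annotates *Rps4l* and *Rpl37rt* as transcribed processed pseudogenes, although neither symbol contains -ps. *Rpl3l*, a muscle gene, had at most 6 counts, *Rpl10l*, a gene of the testis, had 0, and *Rps27rt* had 0.

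*Rps27l*, a target of p53, was the paralogue with the largest values. It was at 110 and 32.9 CPM in Naive, 162 and 197 in Th17, with 96.9 and 66.7 in Th1, and Th17 lay above all other libraries. The log2 fold change was 1.35 ± 0.48 (SE; edgeR adjusted p = 0.0830) in Th17 against Naive and -0.94 ± 0.48 (adjusted p = 0.197) in Th1 against Th17. None of its 100-base stretches occurred in another gene. Its call rested on the setting: DESeq2 called it in Th17 against Naive, and without Naive replicate 1, the higher Naive library, the value was 2.51 and edgeR called it. Of the 6 paralogues tested, with *Rps4l* among them, the median log2 fold changes were 0.68, 0.19 and -0.65 in Th17 against Naive, Th1 against Naive and Th1 against Th17. *Rps19bp1*, which encodes a protein that binds Rps19 and the deacetylase Sirt1, was at 40.6 and 23.4 CPM in Naive, 29.7 and 22.5 in Th17, with 17.8 and 12.5 in Th1, where both libraries were below the other 4 (-0.84 ± 0.35 SE against Naive, edgeR adjusted p = 0.138).

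Replicates of a cell type differed in one direction over most of the family. In Naive, all 73 well-counted core genes had a lower CPM in replicate 2 than in replicate 1, with a median ratio of 0.724, while 48.1% of 13208 genes were lower. The ratio ran from 0.447 for *Rpl38* to 0.972 for *Rps4x*. In Th17, 8 of 73 were lower in replicate 2, against 63.4% of 13412 genes. The median ratio of the 73 was 1.30, from 0.672 for *Rpl29* to 1.78 for *Rpl32*. In Th1, 12 of 73 were lower, against 59.9% of 13096 genes. The median ratio of the 73 was 1.21, from 0.604 for *Rps29* to 1.56 for *Rpl29*. In Naive the ratio went with transcript length, with medians of 0.640 in the 24 shortest, 0.725 in the 25 middle and 0.756 in the 24 longest genes and Pearson's r of 0.46 between the log2 ratio and log2 length across 73 genes. In Th17 and Th1 this r was 0.10 and 0.22. The genes of a library share its depth and preparation, so no p is given. The erythroid marker sum also differed between the Naive replicates, 905 against 154 CPM, and its part in this was not tested.

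**Figure D5:**
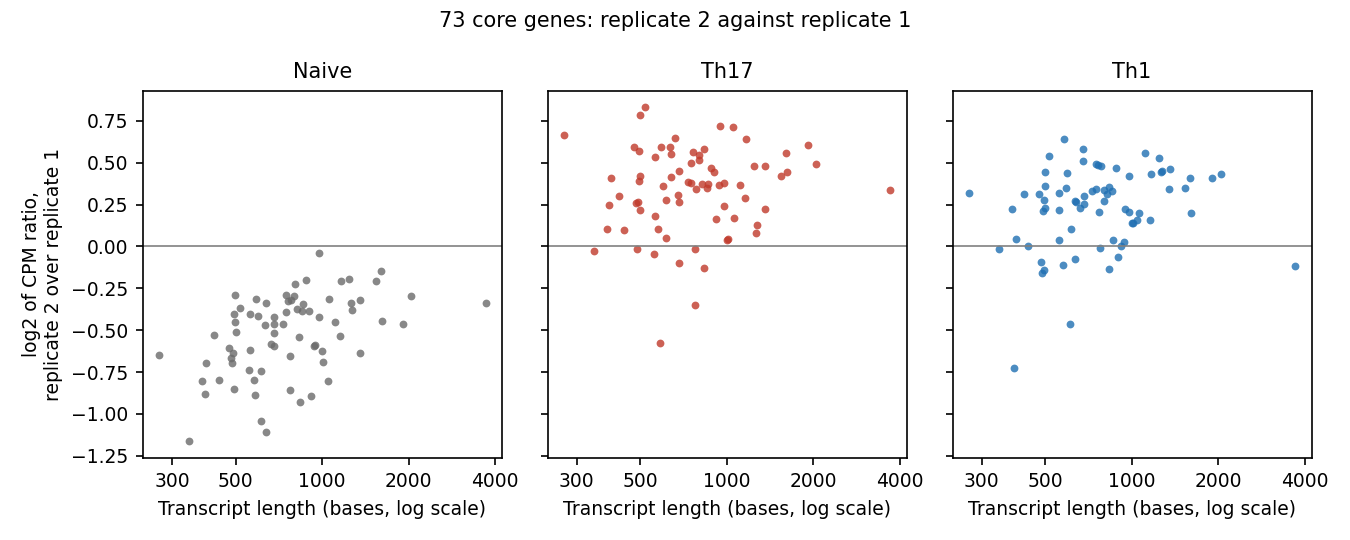
log2 of the CPM of replicate 2 over replicate 1 against transcript length on a log scale, 1 point for each of 73 core genes and 1 panel for each cell type. All Naive points lie below 0, lowest among short transcripts, and most Th17 and Th1 points lie above 0.

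Genes of ribosomal proteins that the symbol rule missed were also measured. *Fau*, a ubiquitin-like fusion with a small subunit protein, was at 2984 and 2079 CPM in Naive, 3065 and 3364 in Th17, with 1937 and 3173 in Th1. *Gnb2l1* was at 2579 and 2206, 2636 and 3976, and 1813 and 2617 CPM. Neither was called. *Eef1a1*, the elongation factor that carries tRNA to the ribosome and whose mRNA also has a TOP motif, was at 15190 and 13000, 15980 and 23890, and 12450 and 15010 CPM, and was not called.

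Other genes of translation and ribosome synthesis are given beside the 6.51% to 9.37% of all genes called in each direction, and no list was tested against the ribosomal proteins or against all genes. Of 20 factors with TOP mRNAs, 0 were called in Th17 against Naive, 1 lower in Th1 against Naive, and 1 higher and 1 lower in Th1 against Th17. Their median log2 fold changes were 0.45, 0.25 and -0.20 in these comparisons, with 14, 15 and 6 of the 20 above 0. The medians of the core genes were 0.47, 0.07 and -0.43. *Eef2*, which moves the ribosome along the mRNA, was higher in Th1 than in Th17 (log2 fold change 1.41, edgeR adjusted p = 0.0378), at 6906 and 10690 against 4434 and 3387 CPM. *Eif4a2*, an RNA helicase, was lower in Th1 than in Th17 (-1.51, adjusted p = 0.0136) and than in Naive (-1.16, adjusted p = 0.0345). Of 26 other initiation and elongation factors tested, *Eif3c* alone was called, higher in Th1 than in Th17 (0.88, edgeR adjusted p = 0.0456).

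Of 62 genes of rDNA transcription and ribosome assembly, 1 was called higher and 3 lower in Th17 than in Naive, 3 lower in Th1 than in Naive, and 1 higher in Th1 than in Th17. *Polr1b*, a subunit of RNA polymerase I, was lower than in Naive in Th17 (-1.32, edgeR adjusted p = 0.0251) and in Th1 (-1.11, adjusted p = 0.0445). *Ncl*, nucleolin, was higher in Th1 than in Th17 (1.23, edgeR adjusted p = 0.0282). The median log2 fold change of the 62 genes was -0.25 in Th17 against Naive, where that of the core genes was 0.47. Of 16 genes of mTORC1 and Myc control, 3 were called lower in Th17 than in Naive, 2 higher in Th1 than in Naive and 4 higher in Th1 than in Th17. The 3 lower genes were *Tsc2*, *Mxd4* and *Rptor*. Beside *Myc* and *Larp1*, *Mxi1* was called higher in Th1 than in Naive, and *Max* and *Eif4ebp2* higher in Th1 than in Th17. The list was not divided into genes that promote and genes that restrain growth, so these counts give no direction for the pathway. *Myc*, which drives transcription of ribosome genes, was at 182 and 149 CPM in Naive, 91.8 and 74.4 in Th17, with 255 and 456 in Th1, and was higher in Th1 than in Th17 (2.33, edgeR adjusted p = 0.00274) and than in Naive (1.37, adjusted p = 0.0235). *Larp1*, the TOP-binding protein, was higher in Th1 than in Th17 (1.55, edgeR adjusted p = 0.00962). In that comparison the median of the core genes was -0.43.

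Mitochondrial ribosomal proteins, 77 genes encoded in the nucleus, had medians of 0.35, -0.07 and -0.42 in Th17 against Naive, Th1 against Naive and Th1 against Th17, beside 0.47, 0.07 and -0.43 of the core genes. Their sum was 4583 and 2851 CPM in Naive, 4182 and 4770 in Th17 as well as 3171 and 3079 in Th1. The Naive replicates differed in the same direction as for the cytosolic genes. *Mrpl33* was called higher in Th17 than in Naive (1.27, edgeR adjusted p = 0.0197) and *Mrps28* lower in Th1 than in Naive (-1.47, adjusted p = 0.0278).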

How the data were processed

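RNA was captured by its poly(A) tail and copied by Smart-seq2, per the labels. The authors mapped the reads to mm10 with HISAT2 2.2.1 and counted them per gene with HTSeq 0.13.5, and the deposited values are raw counts for each gene symbol. Removal of duplicates is stated in the methods but absent from the supplementary code, which also counts with the reverse-stranded option. The gene annotation was not given in the sources used here. Members and gene lists were chosen with earlier results of these data known.

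edgeR 4.0.16 in R 4.3.3 was applied to the 6 libraries. Genes were filtered by filterByExpr, scaled by TMM and fitted with the quasi-likelihood test, with cell type as the only term and Benjamini-Hochberg adjustment over 13607 genes. SE is the log2 fold change over the root of F. DESeq2 1.42.0 was an alternative. The procedure was also run on simulated data in which genes varied independently of each other. The simulation held no shift common to a family, so it cannot show how the test behaves for these genes. Named are, since 0 members were called, the 3 most extreme core genes of each direction in each comparison, paralogues with their partners, the stalk, the proteins binding 5S rRNA, *Rpsa*, *Rps6*, *Rps27a*, *Rpl10*, *Rps19* and *Rpl13a*, the extremes of level and of the replicate ratio, genes outside the rule and the called genes of other lists. Other genes were named after their values were seen, and some genes that this takes in are not reported here. Older symbols were matched through RefSeq synonyms. Lengths are those of the principal GENCODE vM21 transcript. The study describes its replicates as biological, and p-values measure the spread between these libraries. Reads are not independent molecules, so depth and the limits from a count of 0, taken as 3 counts, cover counting error only. The alternatives were RLE factors, library size alone, TMM without the members, no filter, thinning, the replicate number as a block, only the 4 libraries compared and leaving out each library. Scaling to the core sum was added after seeing the data.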

Additional observations from a re-analysis of the deposited data

Results flagged for a closer look

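Counts on symbols containing -ps, which name pseudogenes and were left out of the family, exceeded the limit of 3 counts in every library for 4 of the 7 symbols. *Rpl14-ps1* had between 3694 and 16492 counts, *Rps15a-ps6* at least 34, *Rps19-ps3* at least 14 and *Rps15a-ps4* at least 10. *Rpl14-ps1* was at 254 and 199 CPM in Naive, 227 and 510 in Th17, with 152 and 237 in Th1, against 1613 and 999, 1632 and 1683, and 1010 and 1113 CPM of *Rpl14*. In GENCODE vM21, 60.6% of the 100-base stretches of *Rpl14-ps1* occurred also in *Rpl14*, so that reads could be shared between them, and this was not tested. All 7 symbols together took up at most 0.0519% of counts in a library.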

How the results depend on the processing

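The number of members called, 0 in the main analysis, depended on the setting. In Th17 against Naive, members called higher were 2 with DESeq2 (*Rpl24* and *Rps27l*), 2 with no filter (the same 2 genes, *Rps27l* also as a DEG, 1 gene), and 1 with the replicate block (*Rps27l*). Leaving out 1 library gave 0 to 2 members and 0 to 1 DEGs, with both calls without Naive replicate 1 (*Rps27a* and *Rps27l*). In Th1 against Naive, 1 was called higher with no filter (*Rpl29*), and leaving out 1 library gave 0 to 1 (*Rps27l* without Naive replicate 1). In Th1 against Th17, members called lower were 1 with library size alone, 3 with DESeq2 (*Rpl13a* and *Rpl17* among them), 2 with no filter (*Rpl13a* and *Rps27l*, with *Rpl29* as 1 called higher), 2 with only the 4 libraries compared (*Rps27l* and *Rpl7l1*), and 0 to 1 when 1 library was left out (*Rps27l* without either Naive replicate). The cause was not tested.

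The core median kept its direction under all alternatives but scaling to the core sum in Th17 against Naive (-0.002) and, in Th1 against Naive, library size alone (-0.18) and leaving out a library (-0.23 to 0.35). Leaving out 1 library gave 0.21 to 0.73 in Th17 against Naive and -0.63 to -0.18 in Th1 against Th17, and scaling to the core sum gave -0.056 there, by its construction. Library size alone moved the split of all genes called higher and lower from 1238 and 997 to 875 and 1289 in Th1 against Naive and from 1122 and 1108 to 592 and 1391 in Th1 against Th17. The mean share of counts of each cell type stayed within 1 SD under every denominator tried, but with TMM-scaled totals Th1 (13.1%) lay above Naive (12.4%) and overlapped Th17.

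Replicate numbers were not paired by the labels. Deviations of same-numbered libraries correlated by -0.231 (Naive and Th17), 0.168 (Naive and Th1) and 0.077 (Th17 and Th1) across all genes, and by 0.26, -0.199 and 0.22 across the core genes. With 2 libraries a group, no core gene passed edgeR's threshold, and 73 of the 77 core genes had more than 1000 counts in each library.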
